A study of Mus musculus with 8 samples.

Results

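The 80 genes described here are those whose symbol begins with Kcn, apart from the two-pore family (Kcnk) and Kcnj10, and they are 80 of the 22609 gene rows counted in every library. They comprise 62 genes for alpha subunits of voltage-gated, calcium-activated, sodium-activated and inward-rectifier potassium channels, 17 genes for auxiliary or regulatory proteins, and Kcnq1ot1, a non-coding transcript of the Kcnq1 locus. RNA was sequenced from dorsal root ganglion (DRG) sensory neurons of naïve C57BL/6J mice aged 8 to 12 weeks, with 4 libraries from females in the estrous phase and 4 from males. WGA-488, a fluorescent lectin that axons carry back to the cell body, had been given into both hindpaws and both thighs, and labelled neurons of the L3 to L5 ganglia were sorted 2 days later, with 6 ganglia per sample. Skin and muscle neurons were therefore pooled in each library, and the label marked what took up the tracer rather than a genetically defined class. The comparison asked which transcripts differ between the sexes in these neurons, and the p-values measure the spread between samples. The 6 ganglia of a sample came from both sides, as many as 1 mouse has at these levels, although no label calls each sample a separate mouse.

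Potassium channels let potassium leave the neuron and so set its resting potential, the shape of its action potentials and how fast it can fire again. Most alpha subunits assemble as tetramers around a pore whose selectivity filter is a short stretch of the protein, and auxiliary subunits bind to them and change their gating or traffic. In sensory neurons the Kv1, Kv2, Kv3, Kv4 and Kv7 families, calcium-activated channels and sodium-activated channels all contribute to excitability, whereas Kir channels are prominent in glia and muscle.

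The filter is written in the coding sequence of the alpha subunits in a form that can be read directly. The run searched for was 15 bases in frame, or 5 codons. In the form with tyrosine, the codons were any with C as the middle base, any with T as the middle base, glycine, tyrosine and glycine, and in the form with phenylalanine, any that begins with A, any with T as the middle base, glycine, a codon that begins with TT (phenylalanine or leucine) and glycine. Only the coding strand was searched, and no position can match both forms because the fourth codon differs. Of 79 members with an annotated coding sequence, 49 held the first form and 13 the second, which together were the 62 alpha subunits, and the 17 auxiliary genes held neither. Among all 22737 annotated coding genes, 0.563% held the first form and 0.994% the second. The rule for the first codon was set separately for each form, so the split describes these genes and is no test of the forms. Stretches of 60 bases around the run are shown for members on which the results below turn, with the 15 bases in capitals, from the mm9 (NCBIM37) transcripts of GENCODE M1.

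Kcna1: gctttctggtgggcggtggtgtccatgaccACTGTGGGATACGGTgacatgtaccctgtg
Kcna2: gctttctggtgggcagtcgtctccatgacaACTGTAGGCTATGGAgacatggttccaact
Kcna6: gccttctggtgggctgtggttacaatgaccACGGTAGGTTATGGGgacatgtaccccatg
Kcnd1: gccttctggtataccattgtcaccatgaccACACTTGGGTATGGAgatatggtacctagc
Kcns1: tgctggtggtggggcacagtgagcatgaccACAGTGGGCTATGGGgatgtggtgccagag
Kcnv1: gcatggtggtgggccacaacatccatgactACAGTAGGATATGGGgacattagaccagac
Kcnn4: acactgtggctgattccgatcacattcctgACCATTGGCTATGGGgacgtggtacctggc
Kcnj16: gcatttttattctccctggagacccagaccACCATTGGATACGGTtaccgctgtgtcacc
Kcnh8: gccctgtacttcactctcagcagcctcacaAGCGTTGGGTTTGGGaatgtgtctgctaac
Kcnt1: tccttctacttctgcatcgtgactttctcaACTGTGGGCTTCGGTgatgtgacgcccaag

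The first 8 of these show the tyrosine form, and Kcnh8 and Kcnt1 the phenylalanine form. All lie in coding exons. The Kcna2 stretch is chr3:106908112-106908171 on the plus strand, that of Kcnh8 is chr17:53017286-53017345 on the plus strand and that of Kcnn4 is chr7:25164187-25164246 on the plus strand. Also on the plus strand are those of Kcnj16 at chr11:110886188-110886247 and Kcnt1 at chr2:25749857-25749916. On the minus strand are those of Kcna1 at chr6:126592231-126592290, Kcna6 at chr6:126688650-126688709, Kcns1 at chr2:163990575-163990634 and Kcnv1 at chr15:44940820-44940879. Of 60 stretches located in the genome, 51 lay within 1 exon, and the other 9, those of the Kcnd and Kcnq genes and Kcnv2, were split by an intron, so that the ends of the Kcnd1 stretch are chrX:7402052 and chrX:7408319. Identical 50-base windows, the length of a read, were counted between transcripts. Kcna6 and Kcna5 had 79 such windows in common, or 1.37% of those of Kcna6, so reads of this pair could be split between near-identical copies at few positions.

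Library depth was 4800071 to 7329597 gene reads, and 3 reads corresponded to between 0.409 and 0.625 counts per 1e6 gene reads (CPM). A further set of reads fell outside annotated genes and was not used. It made up 57.8% (female replicate 4) to 60.5% (female replicate 1) of gene, outside and ambiguous reads together. Neuronal markers were abundant (10 of 10 genes tested, summed level 16370 to 22188 CPM in females and 17472 to 18109 CPM in males), endothelial, macrophage and skeletal muscle markers were low (Tnnt3 had no reads, summed level of each list at most 17.0 CPM in any library), and satellite glia and Schwann cell markers, led by Apoe, summed to 11709 to 15161 CPM in females and 5569 to 11298 CPM in males. Xist was at 395 reads or more in each female library and at 6 or fewer in each male library. Female replicate 4 stood apart from the other females (chi-square per degree of freedom 30.1 to 44.9, against 12.1 or less among the other pairs of one sex), and male replicate 1 had the lowest glial and the lowest large-diameter neuron marker sums. Because the samples are bulk RNA, fewer cells of a type and less RNA per cell cannot be told apart.

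The channel genes were detected broadly. Reads were found in all 8 libraries for 63 members, in some libraries for 12, and in none for 5 (Kcne1, Kcnh4, Kcnj1, Kcnj5 and Kcnmb3). Mean levels exceeded 1 CPM for 61 members, 10 CPM for 35 and 100 CPM for 11. Together the members took 0.328% of gene reads in female replicate 4 and between 0.375% and 0.439% in the other 7 libraries.

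**Figure D1:**
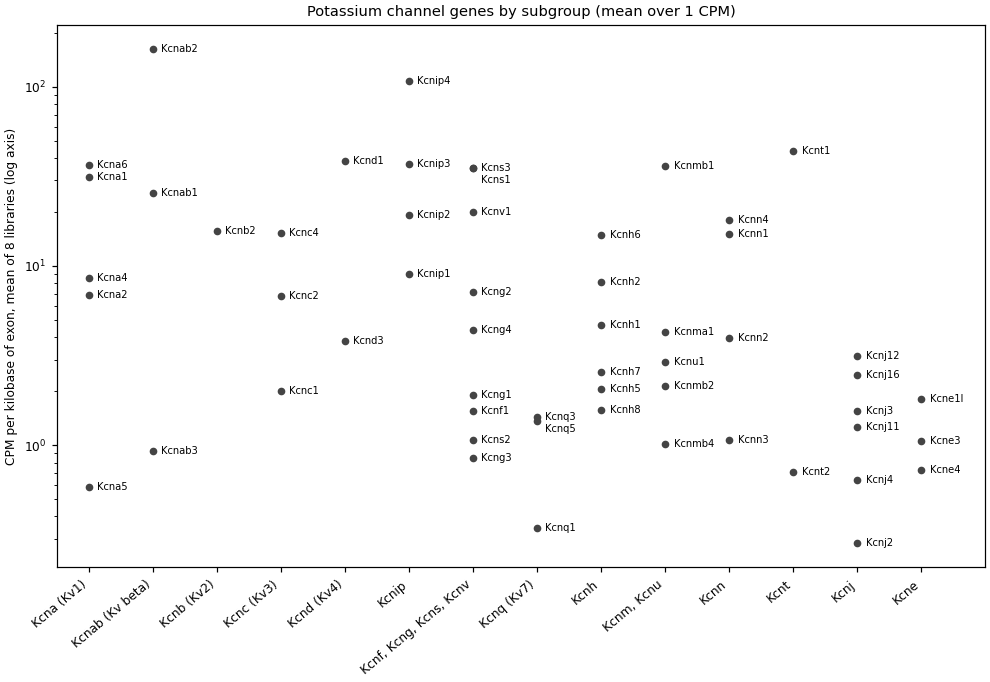
Mean level over the 8 libraries in CPM per kilobase of exon (log axis) for members with a mean over 1 CPM and an annotated length, by subgroup; each point is 1 gene. The auxiliary genes Kcnab2 (162) and Kcnip4 (107) lie above all others.

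Auxiliary genes led when levels were compared per length. Kcnab2, which encodes a cytoplasmic beta subunit of Kv1 channels, had the highest level of all members, at 162 ± 36.5 CPM per kb of exon (SD, n = 8). Its CPM was 1159, 953, 1095 and 488 in female replicates 1 to 4 and 801, 880, 943 and 894 in male replicates 1 to 4. Female replicate 4 was the low library, and the sexes overlapped. Kcnip4, a calcium-sensing protein that binds Kv4 channels, followed at 107 ± 11.6 CPM per kb (SD, n = 8) and was below Kcnab2 in 7 of 8 libraries. The 17 auxiliary genes, 12 of which were tested between the sexes, made up 48.6% of the summed CPM per kb of all members, and the 62 alpha subunits 51.4%. With the longest coding transcript as the length in place of all exons, the auxiliary share became 55.6%, and Kcnab1, another Kv1 beta subunit, moved from 25.6 to 67.7 CPM per kb, the third highest level.

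Below Kcnip4 came a group of 8 genes whose order did not hold from library to library. Their levels per length ran from 43.6 ± 6.40 CPM per kb (SD, n = 8) for Kcnt1, the sodium-activated channel, to 31.5 ± 8.16 CPM per kb for Kcna1, with Kcnd1, Kcnip3, Kcna6, Kcnmb1, Kcns3 and Kcns1 between them. Kcnip3 was above Kcna6 in 3 of 8 libraries, Kcnmb1 above Kcns3 in 3 and Kcns3 above Kcns1 in 4, so these neighbours did not differ beyond the spread between libraries. Kcnip4 was above Kcnt1 in 8 of 8 libraries.

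Among the Kv1 alpha subunits, which open near rest and limit repetitive firing, Kcna6 and Kcna1 were the leading transcripts per length. Kcna6 was at 277, 237, 206 and 62.3 CPM in females 1 to 4 and at 243, 215, 240 and 250 CPM in males 1 to 4. Kcna1, whose product is clustered beside the nodes of Ranvier with that of Kcna2, was at 287, 283, 367 and 312 CPM in females and at 131, 284, 353 and 243 CPM in males. Female replicate 4 was thus low for Kcna6 and male replicate 1 low for Kcna1, and the sexes overlapped for both. As a share of the summed CPM per kb of the 8 Kcna genes, Kcna6 took 36.5% ± 13.4 in females and 48.8% ± 7.1 in males (SD, n = 4), and Kcna2 took 11.3% ± 4.9 in females and 5.6% ± 1.3 in males. Exons of another gene on the opposite strand cover 39.5% of the Kcna6 exons, and whether counting used strand was not stated, so the Kcna6 level is uncertain.

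**Figure D2:**
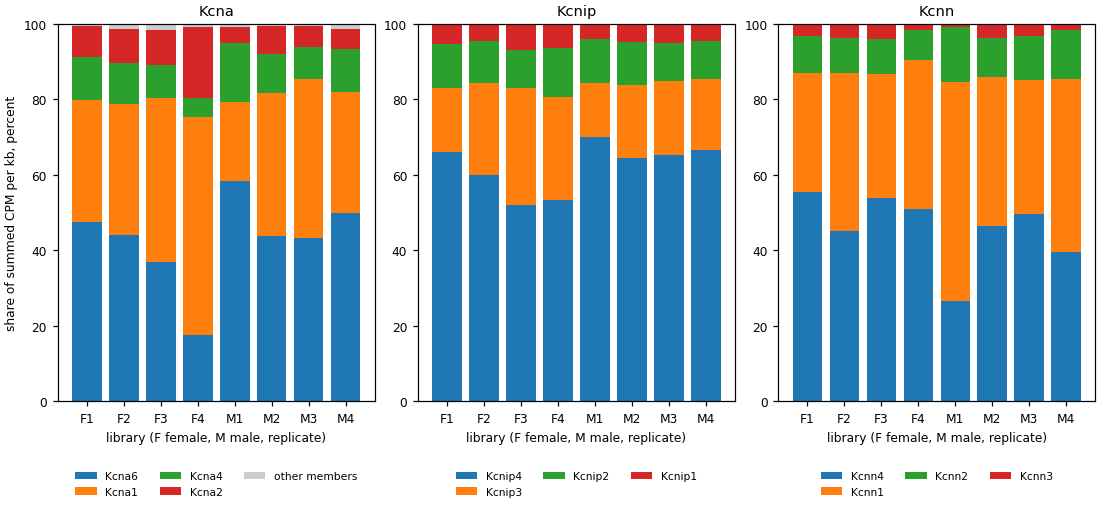
Share of each gene in the summed CPM per kilobase of its subgroup (percent), by library, for the Kv1 alpha subunits, the Kv channel-interacting proteins and the small- and intermediate-conductance calcium-activated channels. Kcna6 falls to 17.5% in female replicate 4 and Kcnn4 to 26.6% in male replicate 1.

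In the Kv4, sodium-activated and Kv3 subgroups a single gene made up most of the level. Kcnd1 took 91.6% ± 2.1 of the Kcnd level per length in females and 90.4% ± 0.6 in males (SD, n = 4), Kcnd3 nearly all of the rest, and Kcnd2, a Kv4 gene prominent in brain, stayed at a mean of 0.247 CPM. Kcnt1 took 97.3% to 99.5% of the Kcnt level in the 8 libraries, and Kcnt2 the remainder. Kcnc4 was the leading Kv3 gene with 61.1% ± 8.3 in females and 56.7% ± 2.0 in males, ahead of Kcnc2. Kcnb2, a Kv2 delayed rectifier clustered on the cell body, was at 15.7 ± 2.25 CPM per kb (SD, n = 8), and at 26.2 ± 3.77 with the longest coding transcript as the length.

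The calcium-activated channels showed an unequal pairing of alpha and auxiliary transcripts. Kcnma1, the alpha subunit of the large-conductance (BK) channel, was at 4.29 ± 0.866 CPM per kb (SD, n = 8), while Kcnmb1, a BK beta subunit best known from smooth muscle, was at 36.0 ± 4.77 CPM per kb. Kcnmb1 was at 160, 173, 137 and 182 CPM in females and at 150, 134, 147 and 123 CPM in males, so that reads were counted in every library and the sexes overlapped. The Kcnmb1 gene (chr11:33863013-33873641, plus strand) lies within the span of Kcnip1 (chr11:33529339-33893152, minus strand). Its exons overlap no other annotated exon, but reads from Kcnip1 introns were not separated from it, so the Kcnmb1 level is uncertain. Mural cell markers summed to 42.5 to 89.5 CPM in females and 76.6 to 100.7 CPM in males. Most of that was Rgs5 (mean 42.3 CPM in females and 57.8 in males) and Pdgfrb (19.9 and 23.9), whereas Acta2 was at 0.483 and 0.475 CPM. The part of mural cells in the Kcnmb1 level was not tested. The BK gamma genes Lrrc26, Lrrc38 and Lrrc52 were too low to test, and Lrrc55 is given below. Among the SK and IK channels, Kcnn4 (intermediate conductance) and Kcnn1 (small conductance) were the leading genes, and Kcnn2 was the steadiest, between 14.0 and 16.4 CPM in all 8 libraries.

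Silent subunits, which form no channel alone and join Kv2 tetramers, accounted for 8.43% of member CPM. Kcns3 and Kcns1 led, each at 35.4 CPM per kb, but Kcns3 ranged from 86.5 to 135 CPM over the 8 libraries and Kcns1 from 47.2 to 144 CPM. Kcns1 was lowest in male replicate 1, at 0.472 times the mean of the other males, and highest in female replicates 3 and 4. The 5 genes of the Kv7 family, which carries the M-current, held 1.40% of member CPM. In the Kcnh family Kcnh6 and Kcnh2, both of the ERG type, led with 14.9 ± 3.61 and 8.14 ± 2.21 CPM per kb.

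The inward rectifier members, which leave out Kcnj10, were low as a group. Kcnj10, the glial Kir4.1 gene, was by itself at 54.2 ± 7.71 CPM in females and 39.96 ± 14.3 CPM in males (SD, n = 4), above the sum of the 14 Kcnj members (38.8 ± 3.65 and 33.7 ± 2.44 CPM) in every library but male replicate 1. The 14 members together held 0.901% of member CPM, 5 passed the expression filter, and the highest per length was Kcnj12, a Kir2 gene, at 3.16 ± 0.721 CPM per kb (SD, n = 8). Kcnj16, whose product pairs with the glial channel of Kcnj10, was at 13.1, 13.5, 13.3 and 5.56 CPM in females and at 2.18, 10.7, 10.2 and 9.02 CPM in males. It was lowest in female replicate 4 among females and in male replicate 1 among males. The single-span Kcne genes held 0.150% of member CPM, with Kcne1l and Kcne3 leading per length, at 1.82 ± 0.777 and 1.05 ± 0.662 CPM per kb, and Kcnrg, a regulator of Kv assembly, had a mean of 0.138 CPM, below the 3-read floor.

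Of the members, 57 passed the expression filter and were tested among 12518 genes, and 23 did not. With an unadjusted p under 0.05 (edgeR quasi-likelihood test), 7 of the 57 were higher in females (12.3%), against 4.62% of all tested genes, and 2 were lower in females (3.51%), against 2.48%. After Benjamini-Hochberg adjustment over all tested genes no member passed 0.05, against 0.0879% of all genes, and the smallest adjusted p was 0.410 (edgeR). DESeq2 gave 1 member past its adjusted threshold, Kcna2 (1.75% of members, against 0.383% of all tested genes), and limma-voom gave 0, against 0.0799%. The estimate was above 0 for 33 members (57.9%), against 51.7% of all genes, and below 0 for 24 (42.1%), against 48.3%. The median log2 fold change, female over male, was 0.06 for members and 0.01 for all. Members also varied more between samples, with a median biological coefficient of variation of 0.239 against 0.183 for all tested genes.

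**Figure D3:**
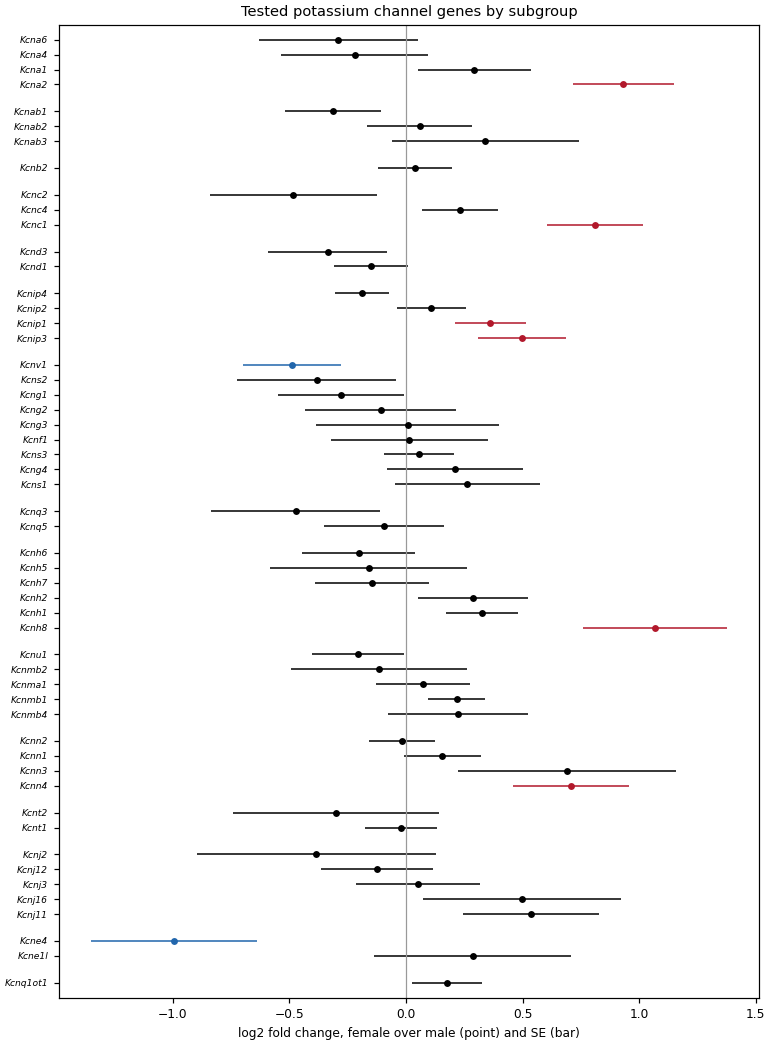
Log2 fold change, female over male (point), with its SE (bar) from the edgeR fit for tested members, grouped by subgroup; red and blue mark an unadjusted p under 0.05, higher and lower in females. The red points include Kcna2 (0.93) and Kcnh8 (1.07), the 2 blue points are Kcne4 (-0.995) and Kcnv1 (-0.49), and members past no threshold are black.

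Of the 7 genes higher in females, 5 encode alpha subunits, among them Kcna2, Kcnc1, Kcnh8 and Kcnn4, and 2 encode Kv channel-interacting proteins, Kcnip1 and Kcnip3. For 4 of them (7.02% of the tested members) no male library reached the lowest female library, against 3.0% of all tested genes. For 1 member, Kcne4 (1.75%), all males lay above all females, against 2.52% of all tested genes.

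Kcna2, the Kv1 subunit of the juxtaparanode, was at 27.8, 28.1, 30.4 and 38.7 CPM in females 1 to 4 and at 10.1, 20.9, 17.8 and 16.1 CPM in males 1 to 4. Every female library was above every male library, with male replicate 1 lowest. The log2 fold change was 0.93 ± 0.22 (SE), with an adjusted p of 0.410 by edgeR and of 0.0292 by DESeq2. Over all alternatives its adjusted p ran from 0.0292 (DESeq2) to 1.0 (edgeR with the glial score).

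Kcnc1, a Kv3 subunit that lets neurons repolarize fast enough to fire at high rates, was at 17.5, 20.8, 27.3 and 28.3 CPM in females and at 10.4, 15.0, 15.7 and 11.8 CPM in males. The groups did not overlap, and the log2 fold change was 0.81 ± 0.21 (SE; edgeR adjusted p = 0.482). Kcnc4 and Kcnc2, also of the Kv3 family, did not pass, with estimates of 0.23 ± 0.16 for Kcnc4 and -0.48 ± 0.36 for Kcnc2 (log2, SE).

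Kcnh8, a channel of the ELK type, was low, with 8 to 29 reads per library. It was at 3.99, 4.86, 4.37 and 3.71 CPM in females and at 1.09, 2.97, 2.15 and 1.77 CPM in males. The groups did not overlap, and its log2 fold change of 1.07 ± 0.31 (SE; edgeR adjusted p = 0.578) was the largest in size among those called. The other 5 tested Kcnh genes did not pass.

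Kcnn4, the intermediate-conductance calcium-activated channel, was at 57.5, 49.98, 53.1 and 65.5 CPM in females and at 17.2, 42.2, 44.7 and 33.1 CPM in males. All females were above all males, and male replicate 1 was far below the other males, at 0.430 times their mean. The log2 fold change was 0.71 ± 0.25 (SE; edgeR adjusted p = 0.630). The small-conductance genes Kcnn1 and Kcnn2 had estimates of 0.16 ± 0.16 and -0.02 ± 0.14 (log2, SE).

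Kcnip3, also known as DREAM, a calcium-binding protein of Kv4 channels that also acts as a transcriptional repressor, was at 98.6, 156, 177 and 187 CPM in females and at 90.3, 115, 115 and 115 CPM in males. Female replicate 1 lay within the male range, and the log2 fold change was 0.50 ± 0.19 (SE; edgeR adjusted p = 0.647). Kcnip1 was at 56.0, 49.98, 69.6 and 76.5 CPM in females and at 43.2, 51.1, 52.2 and 47.5 CPM in males, and its estimate was 0.36 ± 0.15 (SE; edgeR adjusted p = 0.689). Their partners Kcnd1 and Kcnd3 had estimates below 0, -0.15 ± 0.16 and -0.34 ± 0.26 (log2, SE), neither past the threshold, and Kcnip4 had -0.19 ± 0.11.

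The 2 genes lower in females encode modulators. Kcne4, a single-span subunit that inhibits several Kv channels, was at 0.825, 1.56, 1.87 and 0.674 CPM in females and at 2.18, 2.53, 2.48 and 2.37 CPM in males. The groups did not overlap, but the values rest on 4 to 17 reads per library and lie near the 3-read floor, and the log2 fold change was -0.995 ± 0.36 (SE; edgeR adjusted p = 0.630). Kcnv1, a silent subunit that joins Kv2, was at 97.1, 81.4, 75.0 and 46.7 CPM in females and at 118, 80.4, 107 and 111 CPM in males. Female replicate 4 was lowest and male replicate 2 lay within the female range, with a log2 fold change of -0.49 ± 0.21 (SE; edgeR adjusted p = 0.690).

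**Figure D4:**
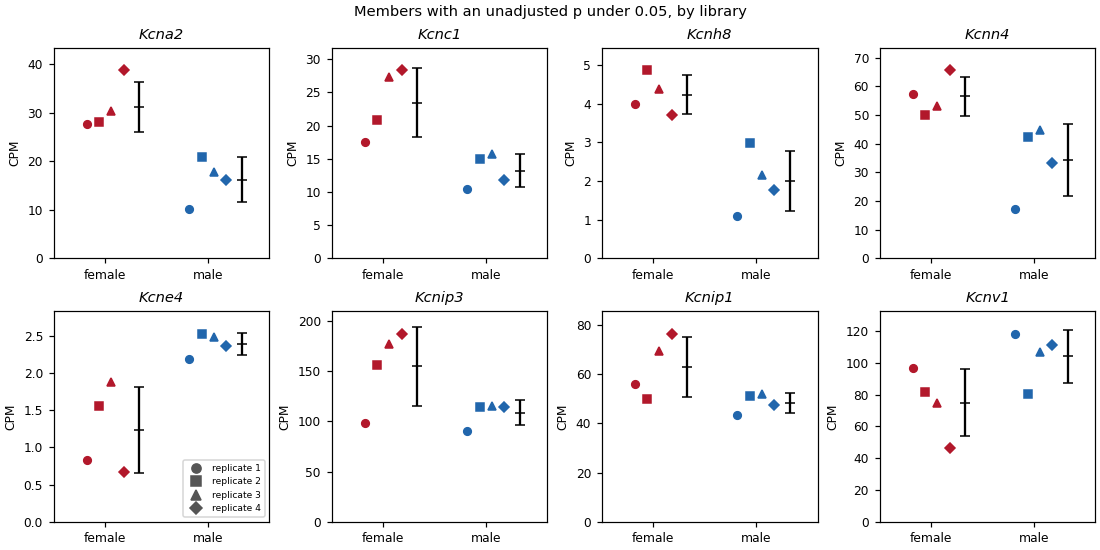
CPM per library of members with an unadjusted p under 0.05, females in red and males in blue, with 1 symbol per replicate number; the bars beside the points give the mean and SD of 4 libraries. Females and males do not overlap for Kcna2, Kcnc1, Kcnh8, Kcnn4 and Kcne4, and male replicate 1 (blue circle) is the lowest male for each gene shown that was higher in females.

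Markers of other cells moved with these genes. In the satellite glia and Schwann cell list, 10 of 11 tested genes had estimates above 0 and 4 passed an unadjusted p under 0.05, all higher in females, and of the fibroblast genes 4 of 5 passed, with sums of 98.7 to 149.6 CPM in females and 44.6 to 84.4 CPM in males. The 8 markers of large-diameter myelinated neurons all had estimates above 0 and 2 passed (Nefh and Ntrk3), with sums of 8871 to 14131 CPM in females and 6736 to 10732 CPM in males, whereas 4 of 7 peptidergic markers passed and were lower in females. With the glial score as a covariate, 0 of 57 members were called higher in females, against 1.08% of all tested genes, and 1 lower (Kcne4, 1.75%), against 0.855%, so calls fell among all genes as well. The estimates became 0.47 for Kcna2, 0.49 for Kcnc1, 0.62 for Kcnh8 and 0.14 for Kcnn4 (log2). With the large-diameter neuron score, an alternative chosen after seeing the data, Kcna2, Kcnc1 and Kcnh8 stayed called, at 0.56, 0.49 and 0.74 (log2), which was 5.26% of members against 1.75% of all tested genes, and Kcnn4 was at 0.28 and no longer called. The glial sums of the sexes did not overlap, so glial marker level and sex cannot be told apart in these 8 samples, and the part of fibroblasts and peptidergic neurons was not tested.

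The libraries that stood apart bore unequally on the members. Female replicate 4 was the lowest female for 27 of 57 tested members (47.4%), against 39.3% of all tested genes, and male replicate 1 the lowest male for 28 (49.1%), against 33.4%. In female replicate 4 many but not all of the longer transcripts were low. Kcna6 was at 0.260 times the mean of the other females, Kcnc2 at 0.274, Kcna4 at 0.311, Kcnab2 at 0.457 and Kcnt2 at 0.204, while the shorter Kcns1, Kcna2 and Kcnip2 were at 1.55, 1.35 and 1.37 times. Among members with long exon totals that were not low, Kcnc1 was at 1.29 times, Kcna1 at 0.998, Kcnh1 at 1.15 and Kcnip1 at 1.31. Kcnip1 is long by all exons (6200 bases) but not by its longest coding transcript (2322 bases). Across 56 members the deviation of this library had a Spearman correlation of -0.45 with exon length, and across 12374 genes -0.56, where all points share the library. In male replicate 1 the same correlation was 0.04 across members, and the genes under 0.5 times the mean of the other males included Kcnn3 (0.218), Kcnj16 (0.219), Kcnh5 (0.293), Kcne1l (0.313), Kcnn4 (0.430), Kcna1 (0.448), Kcnab3 (0.453), Kcns1 (0.472) and Kcnh8 (0.475).

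**Figure D5:**
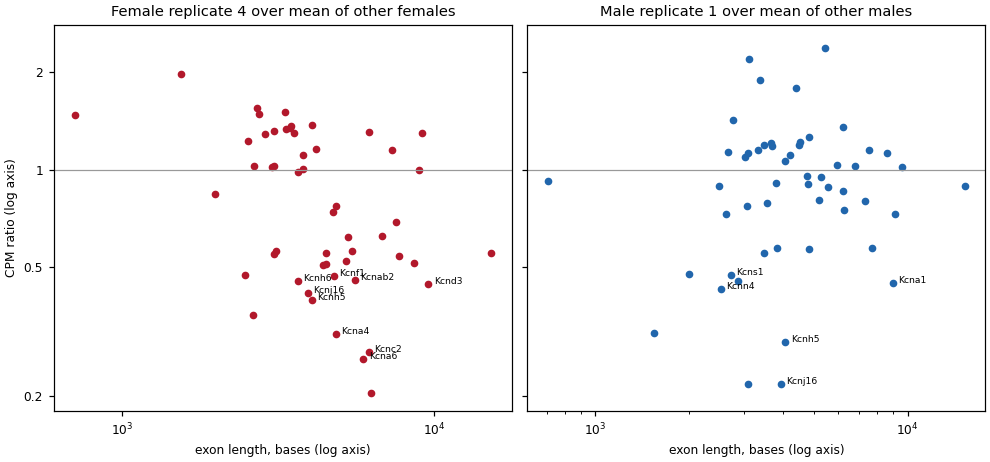
Ratio of the CPM in female replicate 4 to the mean of the other females (left) and in male replicate 1 to the mean of the other males (right) against exon length in bases, both axes log, for tested members with a length; genes under 0.5 with a mean over 5 CPM are named. Longer members tend to be lower in female replicate 4, with exceptions such as Kcnc1 (Spearman correlation -0.45 over all 56 tested members with a length), with no such slope in male replicate 1 (0.04).

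Without both libraries, a choice made after seeing the data, 7 of 58 tested members were higher in females (12.1%), against 5.18% of all tested genes, and 0 lower, against 4.56%. Kcna2, Kcnc1, Kcnh8 and Kcnn4 were among the 7 and Kcnab2, Kcnb2 and Kcnj16 were called in addition, while Kcnip1 and Kcnip3 were not. Kcne4 and Kcnv1 were no longer called as lower. Over all alternatives that tested them, their estimates stayed below 0, from -1.25 to -0.802 for Kcne4 and from -0.634 to -0.232 for Kcnv1 (log2). Without male replicate 1 alone, only Kcna2, Kcnc1, Kcnh8 and Kcnn4 were higher in females (6.9% of members, against 3.16% of all tested genes). These 4 genes had an unadjusted p under 0.05 with each of the 8 libraries left out in turn, Kcne4 in 7 of 8, Kcnip3 in 5, and Kcnip1 and Kcnv1 in 3.

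Genes whose products bind, anchor or regulate these channels were described in the same fit. Of 36 such partner genes, 31 were tested, 0 were higher in females and 1 was lower (unadjusted p under 0.05, edgeR, limma-voom and DESeq2), against 4.62% and 2.48% of all tested genes, and 0 passed after adjustment by any of the 3 tools. That gene was Lrrc55, a BK gamma subunit, at 1.79, 3.30, 2.08 and 3.54 CPM in females and 5.59, 3.42, 4.46 and 5.77 CPM in males, with a log2 fold change of -0.86 ± 0.30 (SE; edgeR adjusted p = 0.630). Female replicate 4 overlapped the males. Of the 10 genes that cluster Kv1 channels along the axon, 4 had estimates above 0 and 6 below, and Cntnap2, whose product Caspr2 holds Kv1 channels at the juxtaparanode, was at 240, 238, 287 and 194 CPM in females and at 176, 219, 253 and 206 CPM in males (log2 fold change 0.16 ± 0.15, SE). The sexes overlapped for Cntnap2, unlike for Kcna2. The Kv4 partner Dpp10 was at 34.4 CPM in female replicate 4 and between 89.0 and 144 CPM elsewhere.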

How the data were processed

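Per the labels and the study's methods, labelled neurons gave SMART-seq2 libraries primed with oligo-dT, sequenced as single 50-base reads, and the authors aligned reads to mm9 with TopHat2 and counted them per gene with HTSeq-count; versions, annotation and strand option are not given in the sources used here. The deposited values are raw counts. The 5 summary lines were dropped and CPM was taken over gene reads. PCR copies cannot be told from molecules, so floors cover counting error only. Counts were tested with edgeR 4.0.16 (quasi-likelihood test, TMM, filterByExpr, sex alone) in R 4.3.3, after a check on simulated data. DESeq2 1.42.0 and limma 3.58.1 were alternatives, with other scalings, filters, a replicate block, marker scores and length corrections. Exon lengths came from GENCODE M1, which matched 79 members by symbol, all but Kcnq1ot1. Tables were made with pandas 2.3.3 and figures with matplotlib 3.10.9. The members and all lists were chosen with earlier results of these data known. Genes named by rule were the 2 highest per length in each subgroup, those with an unadjusted p under 0.05, those whose sexes did not overlap and those without reads, and other genes were named after their values were seen. Results of a few members are not reported here.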

Additional observations from a re-analysis of the deposited data

Results flagged for a closer look

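In 74 groups of 4 libraries, 1 per sex for each quantity checked, 4 had a single library beyond Dixon's limit, and chance flags about 1 in 20 groups, or 3.7 here. Not all 57 tested members were among the quantities checked. All 4 involve the libraries that stand apart.

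Kcne1l, an X-linked relative of the Kcne subunits, was at 4.89 CPM (29 reads) in female replicate 4 and between 2.34 and 2.60 CPM in the other females. Kcnip3 was at 90.3 CPM in male replicate 1 and between 114.7 and 115.1 CPM in the other males. Kcnj16 was at 5.56 CPM (33 reads) in female replicate 4 and between 13.1 and 13.5 CPM in the other females. The summed level of all members was 3280 CPM in female replicate 4 and between 4309 and 4391 CPM in the other females.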

How the results depend on the processing

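The median log2 fold change of members stayed between 0.04 and 0.13 in all alternatives, and 61 members had a mean over 1 CPM in all. Of the 10 members highest per length, 9 remained so with the longest transcript as length, where Kcnab1 entered and Kcna1 left, and the auxiliary share of the summed CPM per kb (48.6%) became 55.6%. Leaving out each library gave 48.3% to 48.8%. Members higher in females numbered 7 in the edgeR fit, or 12.3% against 4.62% of all tested genes. The glial score gave 0 (against 1.08%) and the large-diameter score 3 (5.26%, against 1.75%). A mean of at least 5 CPM gave 6 (13.3%, against 4.6%) and the length correction 8 (14.0%, against 5.69%). Leaving out each library gave 4 to 10, against 3.16% to 5.7% of all tested genes (the 10, without female replicate 1, are 17.2% of members against 5.61%). For those lower in females (2), a mean of at least 5 CPM gave 1 (2.22%, against 2.5% of all tested genes), the glial score 1 (1.75%, against 0.855%) and the large-diameter score 1 (1.75%, against 1.05%). Leaving out female replicate 4 and male replicate 1 gave 0 (against 4.56%), and leaving out each library 1 to 2 (1.69% to 3.45% of members, against 1.49% to 5.72% of all). DESeq2 gave 1 member past adjustment and no other alternative any. Non-overlapping members with females above (4) became 7 without both libraries (12.3%, against 7.84% of all tested genes) and 4 to 9 with each left out (7.02% to 15.8%, against 3.98% to 6.45%), since fewer libraries overlap less often, and those with males above (1) became 0 at 5 CPM, 2 with DESeq2 size factors (3.51%, against 3.17%) and 1 to 2 with each left out (1.75% to 3.51%, against 3.4% to 5.77%). Partner genes are given here with the share of all tested genes. Those higher in females (0) became 1 with the replicate block (against 4.13%), 1 with the length correction (5.69%), 1 without both libraries (5.18%) and 0 to 1 with each left out (3.16% to 5.7%). Those lower (1) became 0 at 5 CPM (against 2.5%), 0 with the glial score (0.855%) and 0 with the large-diameter score (1.05%). They became 3 with the length correction (3.65%), 3 without both libraries (4.56%) and 1 to 4 with each left out (1.49% to 5.72%).

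The replicate block gave 8 members higher in females (14.0%, against 4.13% of all tested genes) and 2 lower (3.51%, against 2.79%), none after adjustment. Same-numbered libraries had correlations of 0.09, -0.11, 0.14 and 0.00 in their deviations from the group means, so the number was not treated as a pairing.

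Sign changes were examined for 30 named members. The estimates that changed sign (log2, female over male) were all of members past no threshold in the edgeR fit. With the glial score they were Kcna1 -0.25, Kcne1l -0.67, Kcnh2 -0.054, Kcnh6 0.067, Kcnj12 0.051, Kcnj16 -0.19, Kcnma1 -0.010, Kcns1 -0.38, Kcns3 -0.20 and Kcnt1 0.13. With the large-diameter score they were Kcna1 -0.16, Kcne1l -0.26, Kcnh2 -0.090, Kcnh6 0.055, Kcnj12 0.13, Kcns1 -0.39, Kcns3 -0.17 and Kcnt1 0.12. Without both libraries they were Kcna6 0.018, Kcne1l -0.31, Kcnh6 0.078, Kcns1 -0.13, Kcns3 -0.14 and Kcnt1 0.15. With other settings they were Kcnt1 0.069 (length correction), Kcnab2 -0.016 (limma-voom) and Kcnab2 -0.011 (replicate block). With each library, or both, left out, the ranges were -0.50 to 0.018 for Kcna6, -0.065 to 0.27 for Kcnab2, -0.058 to 0.19 for Kcnb2, -0.31 to 0.57 for Kcne1l, -0.36 to 0.078 for Kcnh6, -0.29 to 0.029 for Kcnj12, -0.13 to 0.17 for Kcnma1, -0.13 to 0.43 for Kcns1, -0.14 to 0.14 for Kcns3, -0.16 to 0.15 for Kcnt1 and -0.80 to 0.021 for Kcnt2. The cause was not tested. Depth limits Kcne4 (4 to 17 reads per library) and Kcnh8 (8 to 29).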
